A study of Homo sapiens with 6 samples.

Results

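The genes described here are 47 genes of homologous recombination, the Fanconi anemia pathway and the ATM-ATR checkpoint, with end joining and mismatch repair genes beside them, out of 38637 genes in the deposited expression table. They were chosen by name and not by their values, although results of these data were known when the list was drawn up. HCCLM3-SR is a sorafenib-resistant line that the study derived from the human hepatocellular carcinoma (HCC) line HCCLM3 by raising the concentration of sorafenib, a multikinase inhibitor, over a long period. PolyA-Seq, the sequencing of polyadenylated RNA, was performed on 3 libraries of cells with cDCBLD2 knockdown (si_cDCBLD2) and 3 libraries of control cells (si_CTRL). All 6 came from HCCLM3-SR cells transfected with siRNA for 3 days in the presence of 5 µM sorafenib, so the control cells carried the drug and a transfection too, and no library without sorafenib was analysed here. cDCBLD2 is a circular RNA made from exons of the DCBLD2 gene, and although the study carried one siRNA, si-cDCBLD2 1, on to its later experiments, the labels do not name the siRNA used for the libraries.

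A double-strand break can be repaired by pairing the broken end with an intact sister copy, which is homologous recombination, or by joining the ends directly. Recombination begins with resection, in which nucleases such as the MRE11-RAD50-NBN complex cut back one strand, and goes on with strand exchange, in which BRCA1, PALB2 and BRCA2 help a protein filament on the resected strand to invade the sister. The Fanconi anemia proteins unhook crosslinked strands, RecQ helicases resolve joined DNA, and the kinases ATM and ATR halt the cell cycle while repair goes on. Many of these genes are transcribed under E2F factors around S phase, when a sister copy is at hand, and proliferating liver cancer cells are known to express them more than resting hepatocytes.

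The 47 genes were ordered by role. End resection has 6 genes (MRE11, RAD50, NBN, RBBP8, EXO1, DNA2) and strand exchange 13 (BRCA1, BARD1, PALB2, BRCA2, RAD51AP1, RAD51B, RAD51C, RAD51D, XRCC2, XRCC3, RAD52, RAD54L, RAD54B). The Fanconi group has 11 (FANCA, FANCB, FANCC, FANCD2, FANCE, FANCF, FANCG, FANCI, FANCL, FANCM, BRIP1), the RecQ helicases are 3 (BLM, WRN, RECQL4) and the checkpoint has 8 (ATM, ATR, ATRIP, TOPBP1, CHEK1, CHEK2, TP53BP1, MDC1). End joining has 5 (PRKDC, XRCC4, XRCC5, XRCC6, LIG4), and MSH6 stands alone for mismatch repair.

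The promoters show one sequence feature that the choice of genes did not use. Of 39 genes with a RefSeq promoter (GRCh38.p14, 250 bases before to 50 after the start), 8 genes, or 20.5%, hold an E2F motif, searched on both strands as TTTCCCGC, TTTCGCGC, TTTGCCGC or TTTGGCGC. The same letters occur in 5.5% of the promoters of the same length among 10508 genes tested. The 5 matches closest to a start site are printed here 5′ to 3′ on the gene's strand, with the motif or its reverse complement in capitals. They begin 2 bases before the start in FANCD2, 7 bases before it in TOPBP1, and 3, 4 and 21 bases after it in MSH6, EXO1 and XRCC2. A match is a description of the letters and not a bound site.
FANCD2, chr3:10026425-10026452, plus strand: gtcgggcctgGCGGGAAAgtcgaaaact
TOPBP1, chr3:133661931-133661958, minus strand: cgcgcggttgGCGCGAAAgtcggttccc
MSH6, chr2:47783138-47783165, plus strand: tccccccagaTTTCCCGCcagcaggagc
EXO1, chr1:241848198-241848225, plus strand: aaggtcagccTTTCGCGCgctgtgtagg
XRCC2, chr7:152676103-152676130, minus strand: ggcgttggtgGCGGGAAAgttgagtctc

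The other E2F matches were in FANCA, FANCC and XRCC6. CCAAT boxes (CCAAT on either strand) were found in 19 of the 39 promoters, or 48.7%, against 36.6% of all. The CHR element (TTTGAA on either strand), a motif of late cell-cycle genes, was found in 4 of the 39, or 10.3%, against 9.6%.

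The study examined cDCBLD2 together with the miRNA miR-345-5p, so matches to its seed (bases 2 to 8, in capitals) were searched in the coding sequences and 3′ UTRs of the 47 genes. The mature miRNA, at chr14:100307876-100307897 on the plus strand of GRCh38.p14, reads as printed on the next line, and a target match reads GAGTCAG. Matches were found in 19 of the 47 genes, 40.4%, against 21.2% of 11808 tested coding genes. Among the members tested, the 18 with a match were longer (median transcript 5298 bases against 3761 for the 27 without one). There were 19 matches in coding sequence and 7 in 3′ UTRs. The sites shown are those in the checkpoint and Fanconi genes whose TPM levels are described further on, with the match in capitals and 10 bases on each side (GENCODE 29, GRCh38).
hsa-miR-345-5p: gCUGACUCcuaguccagggcuc
TOPBP1, coding sequence, exon 19, chr3:133623130-133623136, minus strand: caataataaaGAGTCAGcaccatcaaa
ATR, coding sequence, exon 29, chr3:142505257-142505263, minus strand: ggagtggccgGAGTCAGtgcaattaga
ATRIP, coding sequence, exon 5, chr3:48457383-48457389, plus strand: ctgccagacgGAGTCAGgatacaagcc
FANCD2, coding sequence, exon 3, chr3:10032956-10032962, plus strand: aaacgggagaGAGTCAGaatcaactag
FANCD2, 3′ UTR, exon 43, chr3:10099230-10099236, plus strand: ccaaagcacaGAGTCAGaagctgccac
FANCI, coding sequence, exon 30, chr15:89305616-89305622, plus strand: tacttgttctGAGTCAGgccgagaagg
FANCM, coding sequence, exon 11, chr14:45166961-45166967, plus strand: tttataatcaGAGTCAGtccaacaaaa
FANCM, coding sequence, exon 18, chr14:45185298-45185304, plus strand: tgaaaatgatGAGTCAGaaaatgaaca
TP53BP1, coding sequence, exon 12, chr15:43456850-43456856, minus strand: aagtacaactGAGTCAGaatgatgaca
TP53BP1, coding sequence, exon 12, chr15:43456715-43456721, minus strand: gtgattcgggGAGTCAGgcagttccgt

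For each gene the authors deposited a level in TPM, a unit of transcript abundance that corrects for gene length and sums to 1000000 in every library. Between 17492673 and 23064302 reads per library were recovered from the ratios of the TPM values, and a single gene of the 47 rested on 22 to 7519 reads in a library. Under 100 reads lay behind 8 of the genes in at least 1 library (DNA2, BARD1, BRCA2, RAD51B, FANCB, FANCM, BRIP1 and LIG4). Of 5 epithelial markers, KRT8, KRT18 and CDH1 had means of 3533, 2132 and 49.5 TPM, but KRT19 and EPCAM only 1.42 and 0.164 TPM. HNF4A, which marks liver cells, had a mean of 26.2 TPM, far above the next liver marker, APOB (2.54 TPM). ALB and AFP, the defining secreted products of hepatocytes and fetal liver, were near background at 0.859 and 1.25 TPM. Of the 10 hepatocyte and liver cancer markers, 4 had a mean above 1 TPM, and their summed level was 34.7 to 40.5 TPM after knockdown and 31.0 to 31.9 TPM in control. Of markers of cells the line should lack, CD3E (T cells) was at 0 and PTPRC (leukocytes) at 0.355 TPM, the endothelial markers summed to between 3.75 and 5.79 TPM in a library, and the highest were CD68 (107 TPM, a lysosomal protein of macrophages and other cells) and LUM (35.9 TPM, a matrix proteoglycan). DCBLD2, the host gene, was at 58.1, 25.9 and 31.6 TPM in the knockdown libraries and 71.5, 48.5 and 50.7 TPM in the controls, and because these values are of the gene as a whole they do not check the loss of the circular RNA. The p-values measure the spread between these libraries, which may be technical, since the labels do not say whether the replicates were separate cultures.

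Values of 3 libraries of a group are given in the order of their replicate numbers. Replicate 1 stood apart from the other replicates in both groups. Among the 45 genes that averaged 1 TPM or more, it had the highest level of its group for 37 genes after knockdown (82.2%, against 51.8% of all genes tested) and for 41 genes in control (91.1%, against 47.6%). The summed level of the 47 genes was 1429, 1117 and 1099 TPM in knockdown replicates 1, 2 and 3 and 1857, 1414 and 1440 TPM in control replicates 1, 2 and 3. Knockdown replicate 1 thus lay within the range of the control libraries, and the groups overlapped, but within each number the knockdown library was the lower one. Deviations from the group means were correlated across genes between libraries of the same number (0.56, 0.343 and 0.362 for numbers 1, 2 and 3). Between numbers 2 and 3 the correlations were also positive (0.215 and 0.247), while those of number 1 with the other numbers were from -0.45 to -0.376. Numbers 2 and 3 were thus less separate from each other than from number 1. Because the deviations of a group's 3 libraries sum to 0 for each gene, the positive value of number 1 in part forces the negative ones. Tests were therefore run without and with the replicate number as a block. Limma made 0 calls among the 45 genes without the block, so where a count of them is given with the block alone, it was 0 without.

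**Figure D1:**
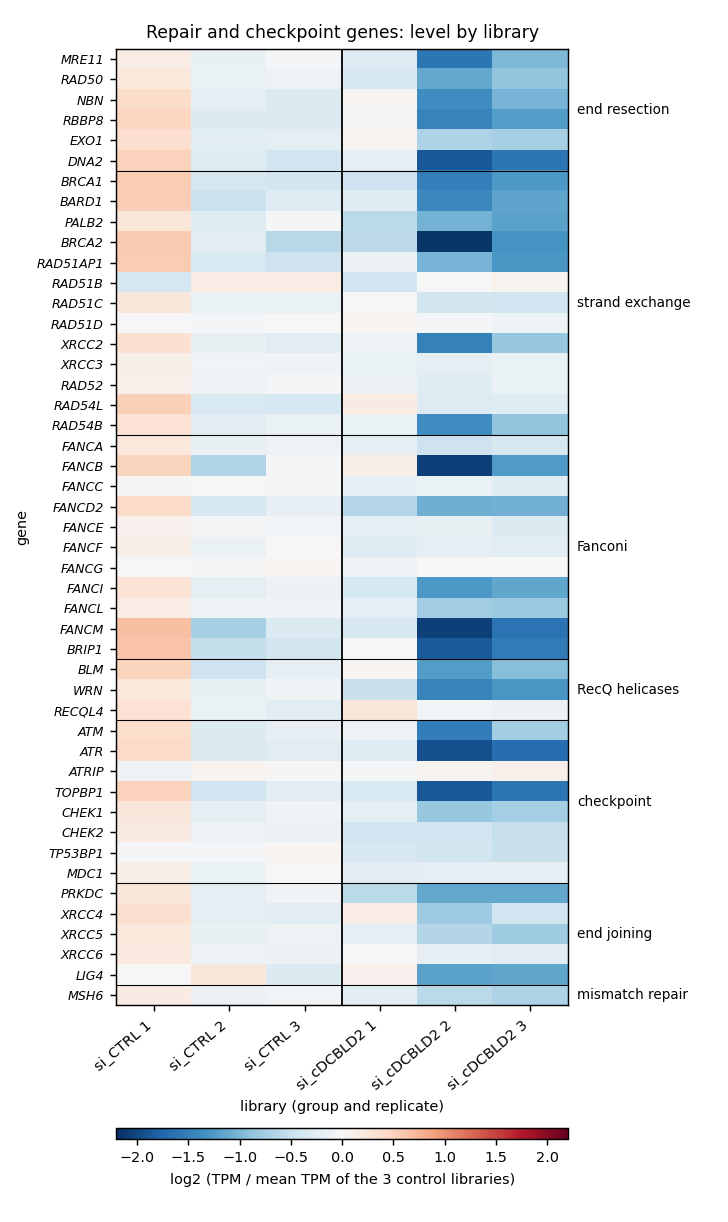
Level of each of the 47 genes in each library, as log2 of its TPM over the mean TPM of the 3 control libraries, with genes in rows by role and libraries in columns. Blue is lower and red is higher than the control mean. Knockdown replicates 2 and 3 are the darkest blue columns, control replicate 1 is the reddest, and FANCG, RAD51D and ATRIP are pale throughout.

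To ask whether repair and checkpoint genes differed after cDCBLD2 knockdown, log2(TPM + 1) was compared with limma over 13980 genes that averaged 1 TPM or more, with Benjamini-Hochberg adjustment. The added 1 makes the fold changes of weakly expressed genes too small. BRCA2 and LIG4 were below that mean and are given by their levels. Of the other 45 genes, 43 had a negative log2 fold change (knockdown minus control), with a median of -0.53 and a range from -1.14 for TOPBP1 to 0.06 for ATRIP, beside a median of -0.08 over all genes tested. In bulk RNA, fewer cells that express a gene and less of its RNA in each cell cannot be told apart.

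Without the replicate block, limma called 0 of the 45 genes lower and 0 higher at an adjusted p under 0.05 (all genes, 0.629% lower and 0.250% higher), with adjusted p-values from 0.0622 for PRKDC to 0.902 for RAD54L. At an unadjusted p under 0.05, 17 genes passed and all 17 were lower, against 19.4% of all genes lower at that threshold. Limma-voom on the recovered reads called 1 of the 47 genes lower without the block, PRKDC (all genes, 1.72%). With the block, limma called 30 of the 45 lower (all genes, 25.0%) and 0 higher (all genes, 9.94%). Both thresholds, an adjusted p under 0.05 and a log2 fold change beyond 1 in size, were passed by ATR and TOPBP1 alone with the block (all genes lower, 0.751%). Limma-voom with the block called 31 of the 47 lower (all genes, 20.5%) and 0 higher (17.5%), and 4 passed both thresholds (all genes, 1.07%), namely ATR, TOPBP1, BRCA2 and FANCM.

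The direction was shared across the 3 pairs of libraries with the same number. In 40 of the 45 genes the knockdown library was the lower one in all 3 pairs (all genes, 43.7%), and in 0 it was the higher one in all 3 (all genes, 22.0%). The median log2 ratio of the 45 genes was -0.44, -0.66 and -0.67 in pairs 1, 2 and 3, against -0.09, -0.08 and -0.13 for all genes. The genes with at least 1 pair that was not lower were RAD51D, RAD54L, FANCG, RECQL4, ATRIP and, below the mean of 1 TPM, LIG4. All 3 knockdown libraries lay below all 3 control libraries in 21 of the 45 genes, or 46.7% (all genes, 22.3%).

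**Figure D2:**
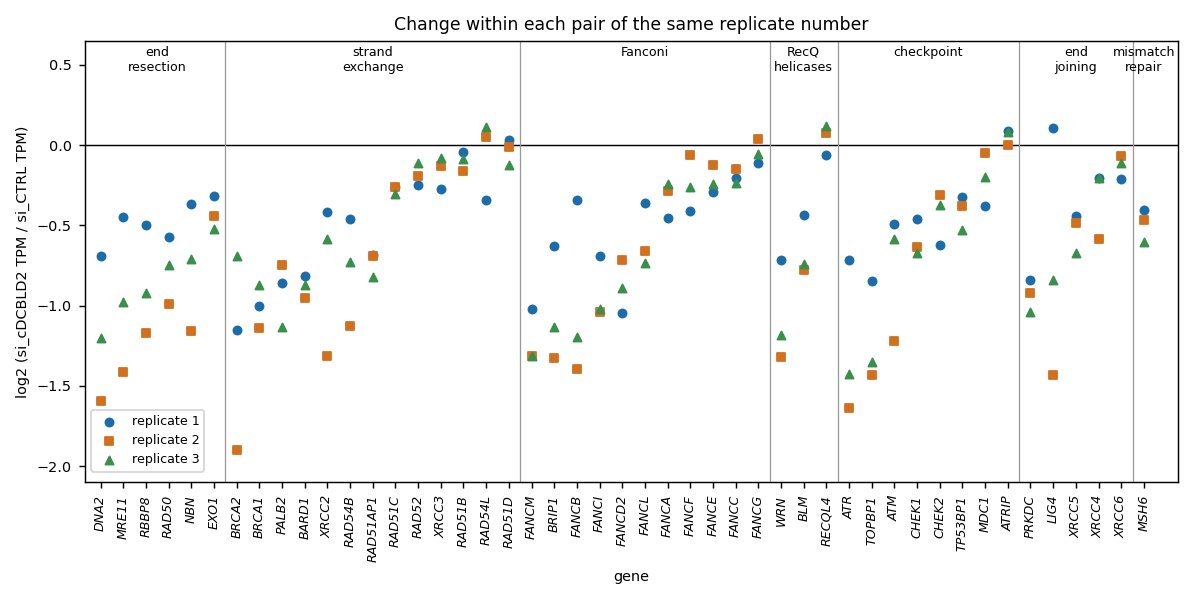
Log2 ratio of knockdown to control TPM for each of the 47 genes within pairs 1, 2 and 3 (libraries with the same replicate number), with genes grouped by role and ordered by their mean ratio. Points below 0 are lower after knockdown, and 41 of the 47 genes have all 3 points below 0, with the replicate 1 point often the closest to 0.

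The counts depended on which libraries were used. Without knockdown replicate 1 and with no block, 22 of the 45 genes were lower (all genes, 19.8%) and 10 passed both thresholds (all genes, 2.89%): MRE11, NBN, RBBP8, DNA2, BRCA1, FANCI, WRN, ATR, TOPBP1 and PRKDC. Leaving out any other single library with no block gave 0 genes lower. With the block and without both libraries of number 1, 30 genes were lower (all genes, 28.0%). Without both libraries of number 2 it was 16 genes (all genes, 7.75%), and without those of number 3 it was 8 genes (all genes, 3.19%). BRCA1, RAD51AP1, FANCD2, FANCI, TOPBP1, PRKDC, XRCC5 and MSH6 were called lower with the block whichever pair was left out.

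The values of these genes moved with base composition and, less closely, with transcript length. Over the 45 genes the log2 fold change had a Spearman correlation of 0.63 with the GC content of the transcript, and over 13163 tested genes with a known GC content it was 0.64, a description across genes that share libraries. The median GC content was 42.2% for the 47 genes and 49.8% for all genes tested. Once the dependence on GC content had been taken out of every library by a smooth curve, the block fit called 19 of the 45 genes lower (all genes, 13.2%) and 0 higher (11.3%), with a median log2 fold change of -0.21 for the 45 genes and -0.01 for all genes. Of the 30 genes called with the block, 17 were kept: MRE11, RAD50, RBBP8, DNA2, BRCA1, PALB2, RAD51AP1, FANCA, FANCD2, FANCI, WRN, ATR, TOPBP1, CHEK1, TP53BP1, PRKDC and XRCC5. XRCC3 and FANCE were called only after the trend was removed. With transcript length the Spearman correlation of the log2 fold change was -0.407 over the 45 genes and -0.266 over the 13163 genes. The median transcript was 4208 bases for the 47 genes and 2865 bases for all genes tested. With the dependence on length taken out instead, the median log2 fold change was -0.376 for the 45 genes and 0.002 for all genes. How far base composition or length accounts for the fold changes was not tested.

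**Figure D3:**
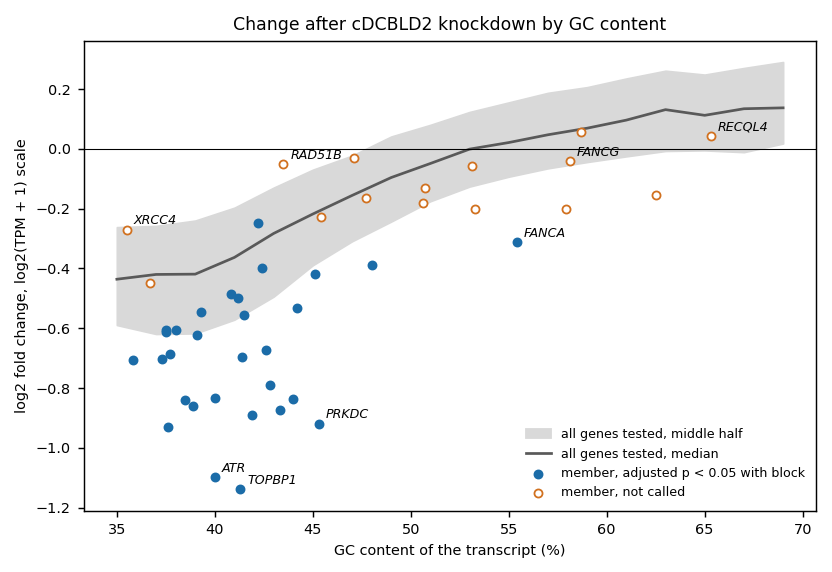
Log2 fold change on the log2(TPM + 1) scale, knockdown minus control, against transcript GC content in percent, for the 45 genes (points) and all genes tested (median line, with the range between the lower and upper quartile shaded). Filled points are genes called lower with the replicate block and open points are genes not called. TOPBP1, ATR and PRKDC lie far below the line for their GC content, while RAD51B and XRCC4 lie above it.

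The genes were also set beside others in the same range of GC content. Under 45% GC, the 29 genes had a median log2 fold change of -0.67, with 26 called lower with the block, against -0.35 and 54.0% for the 4341 other genes. From 45% to 55%, the 10 genes had a median of -0.19, with 3 called, against -0.08 and 20.9% of 4356 others. Above 55%, the 6 genes had a median of -0.10, with 1 called (FANCA), against 0.09 and 3.3% of 4421 others.

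All 6 end resection genes were called lower with the block, with a median log2 fold change of -0.77, beside 25.0% of all genes, and none without it. The count was 6, 3 and 0 with the block when pair 1, 2 or 3 was left out (all genes, 28.0%, 7.75% and 3.19%). All 6 transcripts were under 45% GC, where 54.0% of the other genes were called lower with the block. After removal of the GC trend, 4 of the 6 genes were called with the block (all genes, 13.2%), with a median of -0.38. MRE11, the nuclease of the complex that first binds a break, was at 10.3, 4.18 and 6.30 TPM in the knockdown libraries and 14.1, 11.2 and 12.4 TPM in the controls. The groups did not overlap, although knockdown replicate 1 came close to the lowest control. MRE11 had a log2 fold change of -0.84 (SE 0.279), with a limma adjusted p of 0.13 without and 0.015 with the block, and -0.42 after removal of the GC trend (adjusted p = 0.0448 in limma with the block). DNA2, the nuclease and helicase of long-range resection, had the lowest log2 fold change of the group, -0.93 (SE 0.388). Its levels were 6.48, 2.04 and 2.41 TPM after knockdown and 10.5, 6.15 and 5.53 TPM in control. Knockdown replicate 1 was above control replicates 2 and 3, so the groups overlapped, while replicates 2 and 3 of the knockdown were the lowest libraries. The limma adjusted p of DNA2 was 0.191 without and 0.00876 with the block.

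RBBP8 encodes CtIP, the partner that activates MRE11 for resection, and had the highest mean level of the group. Its levels were 43.6, 16.1 and 18.9 TPM in the knockdown libraries and 61.7, 36.2 and 35.8 TPM in the controls. Knockdown replicate 1 exceeded control replicates 2 and 3, and the other knockdown libraries were the lowest of the 6. Its log2 fold change was -0.83 (SE 0.396), with limma adjusted p-values of 0.234 without and 0.00844 with the block. EXO1, an exonuclease of long-range resection, had the fold change closest to 0 in the group, -0.40 (SE 0.252). It measured 20.5, 12.3 and 11.8 TPM after knockdown against 25.6, 16.6 and 17.0 TPM in control, with overlapping groups and a lower knockdown library in each pair. Its limma adjusted p was 0.352 without and 0.0115 with the block, and after removal of the GC trend the fold change was -0.08 and no longer called (adjusted p = 0.331 in limma with the block). RAD50 and NBN had log2 fold changes of -0.70 and -0.70. The ratio of MRE11 to RAD50 was 0.836 ± 0.15 after knockdown and 0.936 ± 0.0535 in control (TPM ratios, SD, n = 3, exact permutation p = 0.4), and that of NBN to RAD50 was 2.03 ± 0.492 and 1.97 ± 0.259 (exact permutation p = 0.9).

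Of the 12 tested strand exchange genes, 7 were called lower with the block (BRCA1, BARD1, PALB2, RAD51AP1, RAD51C, XRCC2, RAD54B), beside 25.0% of all genes, and the group's median log2 fold change was -0.43. Leaving out pair 1, 2 or 3 gave 6, 3 and 2 calls with the block (all genes, 28.0%, 7.75% and 3.19%). BRCA1, which directs breaks to recombination and recruits PALB2, was at 8.98, 4.32 and 5.08 TPM in the knockdown libraries and 18.0, 9.51 and 9.27 TPM in the controls. Knockdown replicate 1 came close to, but stayed below, control replicates 2 and 3, and control replicate 1 was far above all others. Its mean after knockdown was 50.0% of control, the log2 fold change was -0.89 (SE 0.325), and the limma adjusted p was 0.153 without and 0.00463 with the block. BARD1, the partner of BRCA1 in its ubiquitin ligase, had a log2 fold change of -0.61, and the ratio of BRCA1 to BARD1 was 3.37 ± 0.111 after knockdown and 3.68 ± 0.281 in control (exact permutation p = 0.3). PALB2, the bridge between BRCA1 and BRCA2, had a log2 fold change of -0.79 with groups that did not overlap.

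BRCA2, which loads the filament of strand exchange, was low throughout, at 0.603, 0.204 and 0.363 TPM after knockdown and 1.34, 0.760 and 0.585 TPM in control, on 23 to 108 reads per library. Knockdown replicate 1 was above control replicate 3, so the groups overlapped. On recovered reads its log2 fold change was -1.155 without the block (SE 0.441, limma-voom adjusted p = 0.154). With the block it was -1.11 (SE 0.242, limma-voom adjusted p = 0.00651). XRCC3, which acts in strand exchange and its resolution, had the highest level of the strand exchange group, 36.5, 35.1 and 36.1 TPM after knockdown and 44.0, 38.4 and 38.1 TPM in control. The knockdown libraries were tightly grouped and all below the controls by a small margin. For XRCC3 the log2 fold change was -0.16 (SE 0.0816), with limma adjusted p-values of 0.271 without and 0.0937 with the block, and -0.29 after removal of the GC trend (0.0145 in limma with the block).

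RAD51D, a subunit of a complex that assists strand exchange, had the fold change nearest 0 of the group, -0.03 (SE 0.0881). Its levels were 11.4, 10.8 and 10.2 TPM after knockdown and 11.2, 10.9 and 11.2 TPM in control, so that all 6 libraries lay between 10.2 and 11.4 TPM and the groups overlapped. The limma adjusted p was 0.84 without and 0.757 with the block, and the direction turned to 0.12 after removal of the GC trend. RAD51D shares exons on its strand with the readthrough gene RAD51L3-RFFL, which had a mean of 29.3 TPM, so its reads may be split between them. RAD51B and RAD51C, of the same complex, had log2 fold changes of -0.05 and -0.25, both of which turned positive after removal of the GC trend (0.235 and 0.081), and XRCC2 had -0.67. The motor proteins of the RAD54 family had -0.61 for RAD54B and -0.06 for RAD54L. After removal of the GC trend they had -0.176 (adjusted p = 0.194 in limma with the block) and -0.065, and their difference was not tested. RAD54L was positive in limma-voom (0.045 without and 0.018 with the block), which raised the median of all genes by 0.085 and 0.087. RAD52, which anneals single strands, had -0.16 with groups that did not overlap. RAD51AP1, which stimulates strand invasion, was at 33.9, 18.1 and 15.2 TPM after knockdown and 54.6, 29.2 and 26.8 TPM in control. Replicate 1 was far above the others in both groups, and the groups overlapped, but the 3 log2 ratios within pairs were close to each other (-0.69, -0.69 and -0.82). Its log2 fold change of -0.71 (SE 0.367, limma adjusted p = 0.269 without the block) had the lowest adjusted p of any of these genes with the block, 0.00436 in limma, a value PRKDC shared.

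**Figure D4:**
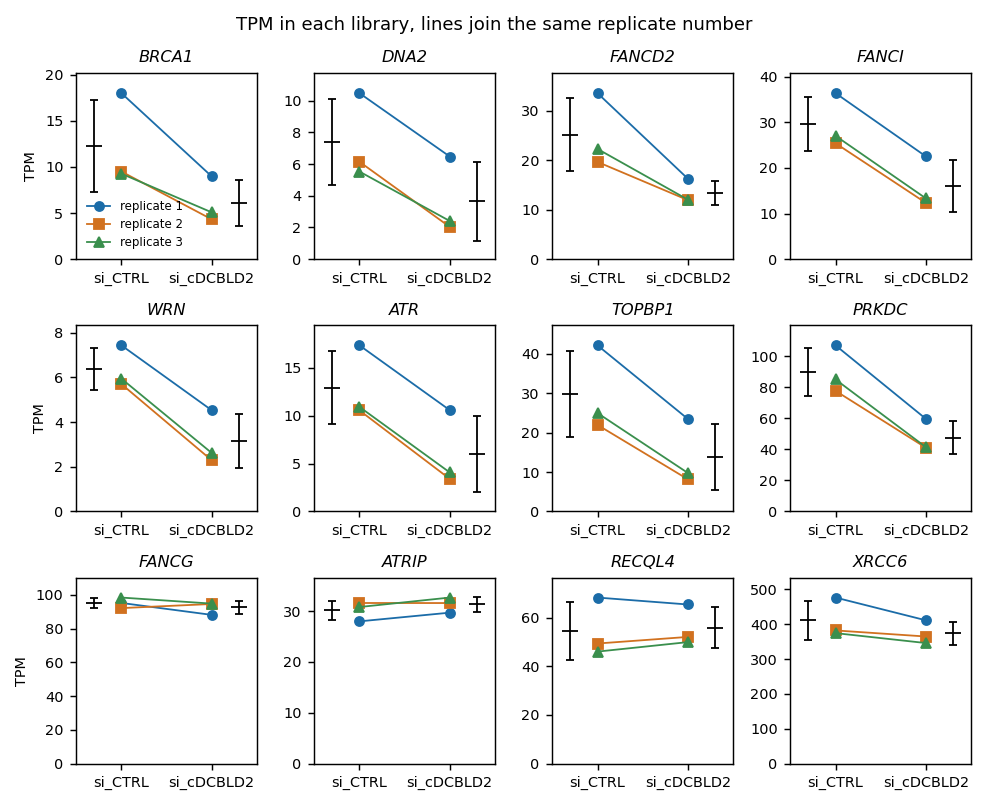
TPM in each library for 12 of the genes, control on the left and knockdown on the right of each panel, with lines joining libraries of the same replicate number and bars for the mean ± SD of 3 libraries. All lines slope down in the upper 8 panels (BRCA1, DNA2, FANCD2, FANCI, WRN, ATR, TOPBP1 and PRKDC), with replicate 1 highest in each group, and lines in the panels of FANCG, ATRIP and RECQL4 are close to level.

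In the Fanconi group 6 of 11 genes were called lower with the block (FANCA, FANCD2, FANCI, FANCL, FANCM, BRIP1), beside 25.0% of all genes, with a median log2 fold change of -0.45. With pair 1, 2 or 3 left out the count was 7, 2 and 2 (all genes, 28.0%, 7.75% and 3.19%). FANCD2 and FANCI form the clamp that is ubiquitinated on DNA at a crosslink. FANCD2 was at 16.3, 11.9 and 12.0 TPM in the knockdown libraries and 33.5, 19.6 and 22.3 TPM in the controls. FANCI was at 22.5, 12.3 and 13.3 TPM after knockdown and at 36.4, 25.4 and 27.0 TPM in control. In both genes all knockdown libraries were below all controls, by the widest margin in the replicates with number 1 for FANCD2 and with numbers 2 and 3 for FANCI on the log2 scale. The log2 fold changes were -0.84 (SE 0.218) and -0.87 (SE 0.245), with limma adjusted p-values of 0.0901 and 0.1 without the block and 0.00479 and 0.00462 with it. The ratio of FANCD2 to FANCI was 0.864 ± 0.127 after knockdown and 0.84 ± 0.0755 in control (exact permutation p = 0.9). FANCI overlaps exons of POLG on the other strand (49.5 TPM), and whether strand was used in counting is not given in the sources used here. Exons also overlap on the other strand for XRCC3 (KLC1, 59.7 TPM), RAD54L (LRRC41, 46.6 TPM) and MSH6 (FBXO11, 20.7 TPM). The same holds for TP53BP1 (TUBGCP4, 16.5 TPM), MRE11 (ANKRD49, 8.19 TPM) and others. RAD54B shares exons on its own strand with FSBP (2.77 TPM).

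Most genes of the core complex that ubiquitinates this clamp had fold changes nearer 0. FANCG, its scaffold, had the highest level of the group, 88.2, 94.6 and 94.8 TPM after knockdown and 95.2, 92.2 and 98.4 TPM in control. The groups overlapped, with knockdown replicate 1 the lowest library and knockdown replicates 2 and 3 above control replicate 2. Its log2 fold change was -0.04 (SE 0.0643), with limma adjusted p-values of 0.71 without and 0.529 with the block. It was positive in limma-voom (0.06), which also raised the median of all genes by 0.085. FANCA, FANCB, FANCC, FANCE and FANCF had log2 fold changes of -0.31, -0.45, -0.18, -0.20 and -0.23, of which FANCA was called with the block. FANCL, the ligase subunit, had -0.55 (limma adjusted p = 0.124 without and 0.0103 with the block). FANCM, the translocase that anchors the complex to DNA, was low at 1.04 ± 0.676 TPM after knockdown and 2.31 ± 1.20 TPM in control (SD, n = 3). Its log2 fold change was -0.69 on the log2(TPM + 1) scale and -1.08 on recovered reads (limma-voom with the block). BRIP1, the helicase bound by BRCA1, had -0.61.

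Among the RecQ helicases, BLM and WRN were called lower with the block and RECQL4 was not, beside 25.0% of all genes. When pair 1, 2 or 3 was left out, 2, 1 and 0 of the 3 were called (all genes, 28.0%, 7.75% and 3.19%). WRN, the Werner syndrome helicase and exonuclease, was at 4.53, 2.29 and 2.62 TPM in the knockdown libraries and 7.43, 5.70 and 5.94 TPM in the controls. The groups did not overlap, and the knockdown mean was 49.4% of control. WRN had a log2 fold change of -0.86 (SE 0.221), with limma adjusted p-values of 0.0892 without and 0.00773 with the block. RECQL4, which also takes part in replication initiation, was the most abundant of the 3 per length, at 65.5, 52.1 and 50.0 TPM after knockdown and 68.3, 49.4 and 46.1 TPM in control. Replicate 1 was the highest library of each group and the groups overlapped. The log2 fold change was 0.04 (SE 0.174, limma adjusted p = 0.893 without and 0.571 with the block), and -0.105 after removal of the GC trend. BLM, the Bloom syndrome helicase, had -0.50, and its call was lost after that removal (adjusted p = 0.262 in limma with the block).

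The checkpoint group held both the lowest and the highest fold changes of all 45 genes. Of its 8 genes 6 were called lower with the block, beside 25.0% of all genes. The count was 6, 4 and 1 when pair 1, 2 or 3 was left out (all genes, 28.0%, 7.75% and 3.19%). ATR, the kinase that senses single-stranded DNA at stalled forks, was at 10.6, 3.39 and 4.07 TPM in the knockdown libraries and 17.3, 10.6 and 10.9 TPM in the controls. Knockdown replicate 1 lay between control replicates 2 and 3, and knockdown replicates 2 and 3 were far below every other library. ATR had a log2 fold change of -1.10 (SE 0.39), with limma adjusted p-values of 0.146 without and 0.00776 with the block. TOPBP1, the scaffold that activates ATR, was at 23.5, 8.16 and 9.77 TPM after knockdown and 42.2, 22.0 and 25.0 TPM in control, with the 6 libraries in the same order as for ATR. Its log2 fold change of -1.14 (SE 0.413) had limma adjusted p-values of 0.152 without and 0.00481 with the block, and was -0.78 after removal of the GC trend (0.00566 in limma with the block).

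ATRIP, the obligate partner that brings ATR to DNA, was at 29.7, 31.6 and 32.6 TPM after knockdown and 28.0, 31.6 and 30.8 TPM in control. The libraries of both groups were mixed within a narrow band. ATRIP had a log2 fold change of 0.06 (SE 0.0818), with limma adjusted p-values of 0.703 without and 0.461 with the block. The ratio of ATR to ATRIP was 0.356, 0.107 and 0.125 in knockdown replicates 1, 2 and 3 and 0.62, 0.334 and 0.354 in the control replicates. It was lower after knockdown within each number, while knockdown replicate 1 was level with control replicate 3 (exact permutation p = 0.3). ATRIP shares exons on its strand with TREX1, which had a mean of 71.0 TPM, so its level is uncertain.

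The effector kinases CHEK1 and CHEK2, which pass the ATR and ATM signals on, had log2 fold changes of -0.56 and -0.42, both called with the block (limma adjusted p = 0.00663 and 0.0141 with it, 0.134 and 0.0892 without) and both with groups that did not overlap. ATM, the kinase of double-strand breaks, had -0.62 (limma adjusted p = 0.245 without and 0.0201 with the block), with its call lost after removal of the GC trend. The break-site adaptors had -0.39 for TP53BP1 (limma adjusted p = 0.0665 without and 0.0134 with the block) and -0.20 for MDC1 (0.218 and 0.0975). After removal of the GC trend they had -0.26 and -0.21 (0.0276 and 0.0817 in limma with the block). Knockdown libraries of TP53BP1 were between 12.9 and 14.2 TPM and control libraries between 17.7 and 18.6 TPM, and replicate 1 did not stand apart in either group.

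The end joining genes encode a machine in which the Ku proteins XRCC6 (Ku70) and XRCC5 (Ku80) bind the end and recruit the kinase PRKDC (DNA-PKcs). PRKDC was at 59.6, 41.0 and 41.4 TPM in the knockdown libraries and 107, 77.6 and 84.9 TPM in the controls. Every knockdown library was below every control library, and all 3 pairs differed by similar log2 ratios (-0.84, -0.92 and -1.04). The log2 fold change was -0.92 (SE 0.182), with limma adjusted p-values of 0.0622 without the block and 0.00436 with it, and -0.70 after removal of the GC trend (0.00317 in limma with the block). XRCC5 was at 169, 125 and 114 TPM after knockdown and 229.6, 175 and 181 TPM in control, and its knockdown libraries were all below its controls. Its log2 fold change was -0.53 (SE 0.172), with limma adjusted p-values of 0.125 without and 0.00511 with the block. XRCC6 had the highest level of all 47 genes, 411, 365 and 346 TPM after knockdown and 477, 382 and 374 TPM in control. Its groups overlapped, with knockdown replicate 1 above control replicates 2 and 3. The log2 fold change of XRCC6 was -0.13 (SE 0.116), and its limma adjusted p was 0.505 without and 0.0682 with the block.

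The ratios between subunits of this complex were compared within each library. The TPM ratio of XRCC6 to XRCC5 was 2.44, 2.92 and 3.04 in knockdown replicates 1, 2 and 3 and 2.08, 2.18 and 2.06 in control. The ratio of XRCC5 to PRKDC was 2.83, 3.05 and 2.75 after knockdown and 2.15, 2.26 and 2.14 in control. In both ratios all knockdown libraries exceeded all control libraries (means 2.8 ± 0.32 against 2.11 ± 0.0654, and 2.88 ± 0.152 against 2.18 ± 0.0659, SD, n = 3), with an exact permutation p of 0.1 each, the smallest that 3 against 3 libraries allow. These 2 ratios are among 7 partner ratios examined, chosen after fold changes of the genes were known. They were taken on TPM without removal of the GC trend, and GC content was 50.7% for XRCC6, 44.2% for XRCC5 and 45.3% for PRKDC. After that removal the log2 fold changes of XRCC6, XRCC5 and PRKDC were -0.08, -0.27 and -0.70.

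XRCC4, the scaffold of the end joining ligase, had a log2 fold change of -0.27 (limma adjusted p = 0.103 with the block), which turned to 0.165 after removal of the GC trend. LIG4, the ligase itself, was at 1.27, 0.525 and 0.541 TPM after knockdown and 1.18, 1.42 and 0.967 TPM in control, on 22 to 53 reads per library, with the knockdown library higher in pair 1 and lower in pairs 2 and 3. MSH6, a subunit of a mismatch sensor, was at 86.0, 67.2 and 63.5 TPM in the knockdown libraries and 114, 92.7 and 96.3 TPM in the controls. All knockdown libraries were below the controls. Its log2 fold change was -0.48 (SE 0.137), with limma adjusted p-values of 0.101 without and 0.00543 with the block, but -0.11 after removal of the GC trend (0.162 in limma with the block).

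Genes with and without a miR-345-5p seed match had close medians. The 18 tested members with a match had a median log2 fold change of -0.55, with 13 called lower with the block (72.2%), and the 27 without one had -0.53, with 17 called (63.0%). Over all tested coding genes the medians were -0.12 with a match and -0.08 without, with 32.9% and 26.4% called, in transcripts with medians of 4534 and 2743 bases. For the E2F letters the median was -0.44 for the 8 members with a match, of which 6 were called lower with the block (EXO1, XRCC2, FANCA, FANCD2, TOPBP1 and MSH6), and -0.45 for the 29 without, of which 17 were called (all genes, 25.0%). Any part of the miRNA or of E2F factors in these values was not tested.

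A list of 78 other genes of the same pathways, of which 76 were tested, was set beside these genes. Without the block, limma called 1 lower, WDR48, a partner of the USP1 deubiquitinase that resets FANCD2 (log2 fold change -0.60, SE 0.0852, limma adjusted p = 0.0451), and 0 higher. With the block, 37 were called lower (all genes, 25.0%) and 1 higher (9.94%), with a median of -0.27 over the 76. Without pair 1, 2 or 3 the count lower was 33, 13 and 4 (all genes, 28.0%, 7.75% and 3.19%). By group, 11 of 27 further recombination genes, 6 of 13 Fanconi genes, 12 of 19 checkpoint genes, 2 of 9 end joining genes and 6 of 8 mismatch repair genes were lower with the block, the end joining share being below that of all genes. The lowest values called with the block within a group were -0.97 for RIF1 (checkpoint), which blocks resection, and -0.89 for MCM8, a helicase of recombination. In end joining it was -0.83 for POLQ, the polymerase of its alternative form, and in the Fanconi group -0.64 for ERCC4, a nuclease that cuts at crosslinks. FAAP100, a core complex subunit, was the one gene called higher with the block, at 80.4, 77.9 and 82.1 TPM after knockdown and 69.7, 68.3 and 70.7 TPM in control (log2 fold change 0.20, limma adjusted p = 0.0191), and it was not called after removal of the GC trend (0.409 in limma with the block).

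Genes of the cell cycle are given beside them. Of the 94 S and G2/M phase genes in the Seurat lists that are not among the 47, 1 was lower without the block and 78 with it (83.0%, against 25.0% of all genes), with a median log2 fold change of -0.48. With the block, 56 were lower after removal of the GC trend (all genes, 13.2%), and 75, 57 and 38 when pair 1, 2 or 3 was left out (all genes, 28.0%, 7.75% and 3.19%). The S phase genes had a median of -0.36, with 28 of 40 lower with the block, and the G2/M genes one of -0.62, with 50 of 54 lower. EXO1, RAD51AP1 and BLM belong to both the 47 genes and those lists. The summed level of the 94 genes was 8180, 6233 and 5962 TPM in knockdown replicates 1, 2 and 3 and 10340, 7422 and 7521 TPM in control, with replicate 1 highest in each group, as for the 47 genes. TOP2A, which the study follows, was at 54.6, 21.1 and 24.4 TPM after knockdown and 116, 69.5 and 75.9 TPM in control (log2 fold change -1.45, limma adjusted p = 0.0892 without and 0.00436 with the block). The share of cells in each phase was not measured here, and its part in the levels of the repair genes was not tested.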

How the data were processed

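PolyA-Seq of HCCLM3-SR cells gave 3 cDCBLD2 knockdown and 3 control libraries, grouped by sample label. The authors deposited TPM values per gene. The submitters' processing notes name fastp 0.20.1, HISAT2 2.1.0, StringTie 2.0 and hg38. The annotation and the treatment of strand and multimapping reads are not given in the sources used here, so overlapping genes are uncertain. Columns of other samples were absent (0).

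The members and lists were chosen with earlier results of these data known. The 13980 genes averaging 1 TPM or more were taken as log2(TPM + 1) and fitted in R 4.3.3 by limma 3.58.1, with the prior variance following the mean level, and p-values were adjusted by Benjamini-Hochberg over those genes. The main fit had no block, since the study's methods name none. The replicate numbers pair the libraries by their correlated deviations (all 3 above 0.1), not by a stated batch, although numbers 2 and 3 also correlated with each other. For single values, exact permutation tests (two-sided) were used.

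Whole reads were recovered from the ratios of TPM values for 100.0% of 17285 genes above 0 in all libraries, where a value within 0.02 read of a whole number, or closer where its decimals allow, counted as whole, against 0.01% with library factors moved at random by up to 10%. They are lower bounds, limit precision for low genes, and entered limma-voom with median-of-ratios size factors (at least 10 reads in 3 libraries). Transcript GC content, length and seed sites came from GENCODE 29 (GRCh38), matched for 94.2% of tested genes and all 47 members, and trends were removed per library by loess with a span of 0.5. Promoters and the miRNA came from RefSeq GRCh38.p14, with 39 of 47 members matched. Cell-cycle lists came from Seurat 5.3.0.

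Genes given with values in every library were members called in either fit with a log2 fold change beyond 0.8 in size, and in each role the lowest and highest fold change and the highest mean TPM. Of the other pathway genes, the called extremes of each group were to be named, and the values of some genes are not reported here. The levels of BRCA2, LIG4, RAD54L, FAAP100, RAD51AP1, XRCC5, TP53BP1 and FANCM and the partner ratios were chosen after values were seen. Alternatives were another pseudocount, no filter, upper-quartile scaling, GC and length offsets, the block, limma-voom and leaving out each library. Leaving out each pair with the block was chosen after seeing the data. Scripts, tested on simulated data, ran in Python 3.11.15 with numpy 2.4.6, pandas 2.3.3, numba 0.67.0 and scipy 1.17.1, and plots were drawn with matplotlib 3.10.9.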

Additional observations from a re-analysis of the deposited data

How the results depend on the processing

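The median log2 fold change of the members stayed negative under every alternative, between -0.209 and -0.73. It was -0.532 in the main fit, -0.209 with the GC offset (with or without the replicate block), -0.376 with the length offset, and between -0.73 and -0.393 when 1 library was left out. With a pair left out and the block it was -0.576 to -0.468. No alternative moved the median of all genes by more than 0.087. The count of members lower went from 0 to 30 with the replicate block, 19 with the GC offset and block, 1 with limma-voom and 31 with limma-voom and the block. It was 22 without knockdown replicate 1 and 0 without any other single library. With the block it was 30, 16 and 8 when pair 1, 2 or 3 was left out. Past both thresholds the counts were 2 with the block (all genes lower, 0.751%) and 4 with limma-voom and the block (1.07%). Without 1 library they were 10 without knockdown replicate 1 (all genes, 2.89%) and 0 otherwise, where 0 members passed the adjusted p alone. They were 5, 1 and 1 with the block without pair 1, 2 or 3. The share of all genes was not counted for these pair fits, so their counts cannot be set against it. No alternative called a member higher. For the other pathway genes, the count lower (1) became 0 with the GC offset and with no filter, 19 with the GC offset and block, 2 with limma-voom, 30 with limma-voom and block, 37 with the block, 0 to 21 without 1 library, and 33, 13 and 4 without pair 1, 2 or 3. The count higher (0) became 1 with the block, 1 with the GC offset and block, 4 with limma-voom and block, and 0 to 1 without a pair. The causes were not tested.

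Genes with small fold changes changed sign. With the GC offset, with or without the block, RAD51B was 0.235, RAD51C 0.081, RAD51D 0.123, XRCC4 0.165, RECQL4 -0.105 and ATRIP -0.043. With the length offset RAD51B was 0.013, RAD51D 0.305, RAD54L 0.031, FANCG 0.023 and MDC1 0.088. With limma-voom RAD51B was 0.006 (0.0 with the block), RAD51D 0.062 and FANCG 0.058 in both, and RAD54L 0.045 (0.018 with the block). Upper-quartile scaling gave RAD51D 0.033, RAD54L 0.009 and FANCG 0.028. Upper-quartile scaling and limma-voom raised the median of all genes by 0.063 and 0.085, a shift shared by all genes. Sign changes of genes this close to 0 under these settings therefore say nothing about these genes. The GC offset raised that median by 0.076, with a shift that differs by GC content. The length offset raised it by 0.087, with a shift that differs by transcript length. With that offset RAD51D (9988 bases) went from -0.032 to 0.305 and MDC1 (7576 bases) from -0.201 to 0.088. Leaving out 1 library gave ranges of -0.145 to 0.027 for RAD51B, -0.067 to 0.004 for RAD51D, -0.213 to 0.222 for RAD54L and -0.074 to 0.213 for RECQL4. Low reads limit BRCA2, LIG4, FANCB and FANCM.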
